A study of Mus musculus with 12 samples.

Results

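Molecular chaperones and protein-folding enzymes were followed in kidney cortex of mice. The members are the genes of the heat shock protein families (HSP70, HSP90, small HSP), their J-protein partners, the cytosolic chaperonin CCT, the protein disulfide isomerases, the FK506-binding proteins, the cyclophilins and the lectin chaperones, taken by gene symbol from the array's annotation. They numbered 66 of 6786 named genes and 129 of 15600 spotted clones. By place, 40 genes belong to cytosol and nucleus, 17 to the endoplasmic reticulum (ER) and 8 to mitochondria, and 1 is a pseudogene, Hspd1-ps3. After the dimmest 25% of clones were left out, 62 genes were tested, 37 of cytosol and nucleus, 16 of the ER, 8 of mitochondria and the pseudogene. Dnajb4, Fkbp15 and Hspbp1 of the cytosol and Hspa13 of the ER had only clones below that limit. Hsp90ab1, Hyou1, Pdia4, Ppib and Ppif were not analysed here.

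RNA came from 2 groups of 3 mice. Menopausal/diabetic mice had received VCD (vinylcyclohexene diepoxide, a toxin of small ovarian follicles) and STZ (streptozotocin, a toxin of insulin-making beta cells). Diabetic mice had received STZ, so both groups were diabetic, and no group without diabetes is part of these comparisons. Strain, sex and age are not given in the labels. Cortex was taken 6 weeks after STZ, its RNA was amplified, and pairs of animals were hybridised to 12 arrays in Alexa Fluor 546 and 647, with 4 arrays for each animal, 2 in each dye.

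A chaperone binds a folding protein and releases it, most often by spending ATP. HSP70 proteins do so with J proteins, which bring the client and start ATP hydrolysis, and HSP90 takes over many clients late in folding. In the ER, the HSP70 protein BiP (Hspa5), the HSP90 protein Grp94 (Hsp90b1), the lectins calnexin and calreticulin and the disulfide isomerases serve secreted and membrane proteins, and they are known targets of the unfolded protein response. In mitochondria, mortalin (Hspa9) pulls proteins in and Hsp60 with Hsp10 (Hspd1, Hspe1) folds them. Proximal tubule cells, the main cell type of kidney cortex, carry a heavy load of membrane transporters and mitochondria.

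Values are animal levels on the log2 scale, relative to the mean of the 6 animals for the same gene. They show how animals differ and hold no information on which gene is more abundant. Arrays had median background-subtracted intensities of 25.3 to 209 (Alexa Fluor 546) and 14.6 to 107 (Alexa Fluor 647), and 30.5% to 57.4% of their spots were detected. When each array was predicted from the remaining ones, its correlation with the prediction was -0.14 to 0.63 across all features, and 3 arrays lay below 0. The value of 0.63 was that of the array titled with diabetic animals 2 and 3. The animals of each array rest on its title. Identifiers inside 11 of the 12 array files match the titles, and those of the array of diabetic animals 2 and 3 do not.

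Diabetic animal 3 stood apart from the other 5. The proximal tubule gene Lrp2, the endocytic receptor megalin, had levels of 0.13, 0.25 and 0.33 in menopausal/diabetic animals 1, 2 and 3, against 0.18, 0.24 and -1.15 in diabetic animals 1, 2 and 3. Gatm, which makes the creatine precursor, was at -1.66 in diabetic animal 3, Miox, the myo-inositol oxygenase, at -0.89, and the distal tubule gene Calb1 at -1.36. These 4 genes and the podocyte gene Podxl were all lowest in that animal, which was the lowest of the 6 for 22.4% of all features tested. Of the 8 proximal tubule markers listed, 3 were measured, all of them higher in menopausal/diabetic mice, by 0.29 to 0.69. Podxl differed by 0.18, the endothelial gene Emcn by 0.10 and the leukocyte gene Lyz2 by -0.18. Of markers of tissue beside the kidney, adrenal Star was detected on 10 arrays, liver Alb on 9 and liver Apoa1 on 0. In bulk RNA, fewer cells of a type and less RNA per cell cannot be told apart. Main results are therefore given with and without diabetic animal 3. Leaving it out also drops its 4 arrays, so the levels of the other animals are fitted anew and can move too. The part of the marker difference in these results was not tested.

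No chaperone or folding gene passed the test between groups. With limma on the 6 animal levels and Benjamini-Hochberg adjustment over 9958 features, 0 of 62 members, and 0% of all features, had an adjusted p under 0.05, and the smallest adjusted p of any feature was 0.239. At an unadjusted p under 0.05, 2 members were higher in menopausal/diabetic mice (Cct8 and Hspa8), against 5.14% of all features, and 1 was lower (Ppih), against 3.22%. The 3 menopausal/diabetic animals lay above all 3 diabetic animals in 6 members (Cct8, Hspa8, Dnajc13, Hspa12a, Dnajc2 and Fkbp9), against 7.63% of features, and below them in 2 (Ppih and Ppig), against 6.59%. These counts are close to those shares of 62 genes. Of the 62, 33 were detected on all 12 arrays and 7 on fewer than 6, among them Hspa4, Hspa12a, P4hb and Dnajc2, and Dnajb1, the inducible partner of HSP70, was well above background on none.

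The 3 compartments had much the same centre. In the cytosol and nucleus 21 members were higher and 16 lower in menopausal/diabetic mice, with a median difference of 0.02. In the ER the split was 9 higher to 7 lower (median 0.02). In mitochondria it was 4 to 4 (median -0.01), and the median of all features tested was 0.00. Median levels of a compartment in single animals ran from -0.06 to 0.05, so the compartment medians differ by less than single animals do. Without diabetic animal 3 the medians were 0.02 in the cytosol, -0.01 in the ER and 0.00 in mitochondria.

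**Figure D1:**
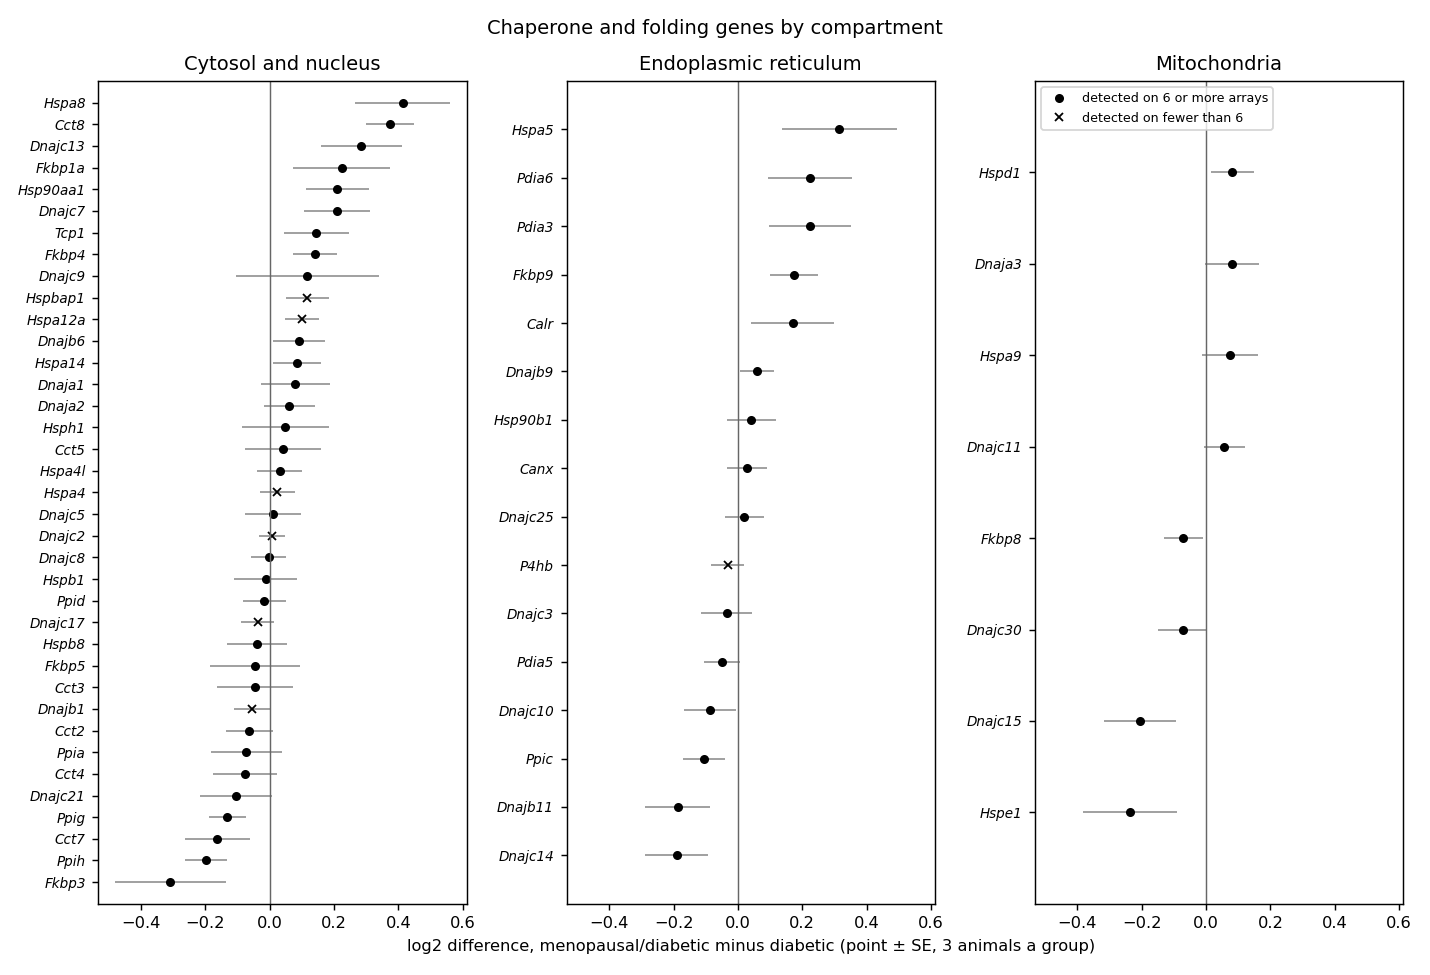
Difference of each chaperone and folding gene between menopausal/diabetic and diabetic mice (horizontal axis, log2, point ± SE, 3 animals a group), in a panel for each compartment and ordered by size. Crosses mark genes detected on fewer than 6 arrays. Most points lie within 0.2 of 0, with Hspa8 (0.41) and Cct8 (0.37) at the top of the cytosol, Hspa5 (0.31) at the top of the ER and Fkbp3 (-0.31) the lowest.

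Among the cytosolic HSP70 genes, Hspa8 had the highest difference. It encodes Hsc70, the constitutive HSP70 that folds new proteins and uncoats clathrin vesicles. Its levels were 0.14, 0.51 and -0.03 in menopausal/diabetic animals 1, 2 and 3, against -0.08, -0.16 and -0.38 in diabetic animals 1, 2 and 3. The groups did not overlap, though menopausal/diabetic animal 3 and diabetic animal 1 lay close together. The difference was 0.41 ± 0.15 (SE, n = 3 each), which is 1.33-fold, with a 95% interval of 0.06 to 0.77 and an adjusted p of 0.557 in limma. Over the 20 alternatives in processing, arrays or animals it stayed between 0.26 and 0.55, but several of these return the main difference unchanged. It was 0.30 with a loess curve for each print block (limma unadjusted p = 0.083) and 0.35 without diabetic animal 3. On the 6 arrays that pair the groups, 5 had a higher Hspa8 signal from the menopausal/diabetic animal.

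Hspa8 was also spotted as 5 clones, and they did not give the same size. Besides the brightest clone at 0.41, the other clones gave 0.57, 0.26, 0.06 and 0.00. The clone at 0.57 had levels of 0.51, 0.34 and 0.01 in menopausal/diabetic animals, against -0.36, -0.09 and -0.40 in diabetic animals, again without overlap. The clone at 0.00 was detected on 6 arrays, the others on all 12.

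All 8 HSP70 genes tested were higher in sign in menopausal/diabetic mice, by 0.02 to 0.41, against 49.0% of all features. Their count was 7 of 8 with a loess curve for each print block, 5 of 9 without background correction and 6 to 8 of 8 when 1 animal was left out. Besides Hspa8 and the ER member Hspa5, they lay between 0.02 and 0.10. Hsph1, the HSP110 exchange factor that frees ADP from HSP70, had a difference of 0.05 ± 0.14, and its levels in diabetic animals 1, 2 and 3 spread over -0.33, 0.04 and 0.22. A second Hsph1 clone, in the upper left print blocks and detected on 5 arrays, had a difference of 0.31 with no overlap of the groups, and the mean over both clones was 0.18. Mortalin, Hspa9, had a difference of 0.07 ± 0.09 and both of its clones were higher, at 0.07 and 0.13. Second clones of Hspa12a and Hspa14 were lower, at -0.05 and -0.07, while their brightest clones were at 0.10 and 0.08. With each clone on its own, 14 of 18 HSP70 clones were higher. Hspa4 and Hspa4l, also exchange factors of the HSP110 type, had differences of 0.02 and 0.03.

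Hsp90aa1, the stress-responsive cytosolic HSP90, had levels of 0.09, 0.20 and 0.03 in menopausal/diabetic animals 1, 2 and 3, against -0.13, -0.27 and 0.09 in diabetic animals 1, 2 and 3. Diabetic animal 3 overlapped the menopausal/diabetic group. The difference was 0.21 ± 0.10 (SE, n = 3 each, limma adjusted p = 0.619). Of its 8 measured clones, 6 were higher and 2 lower, from -0.05 to 0.21, with the standing clone at the upper end, and the mean over clones had a difference of 0.07. Fkbp4 (FKBP52), an HSP90 partner of the steroid receptor complex, gave 0.11, 0.13 and 0.14 in its 3 clones, with an adjusted p of 0.622 for the brightest in limma. Fkbp5 (FKBP51), its competitor in that complex and a glucocorticoid-induced gene, had a difference of -0.05 ± 0.14.

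**Figure D2:**
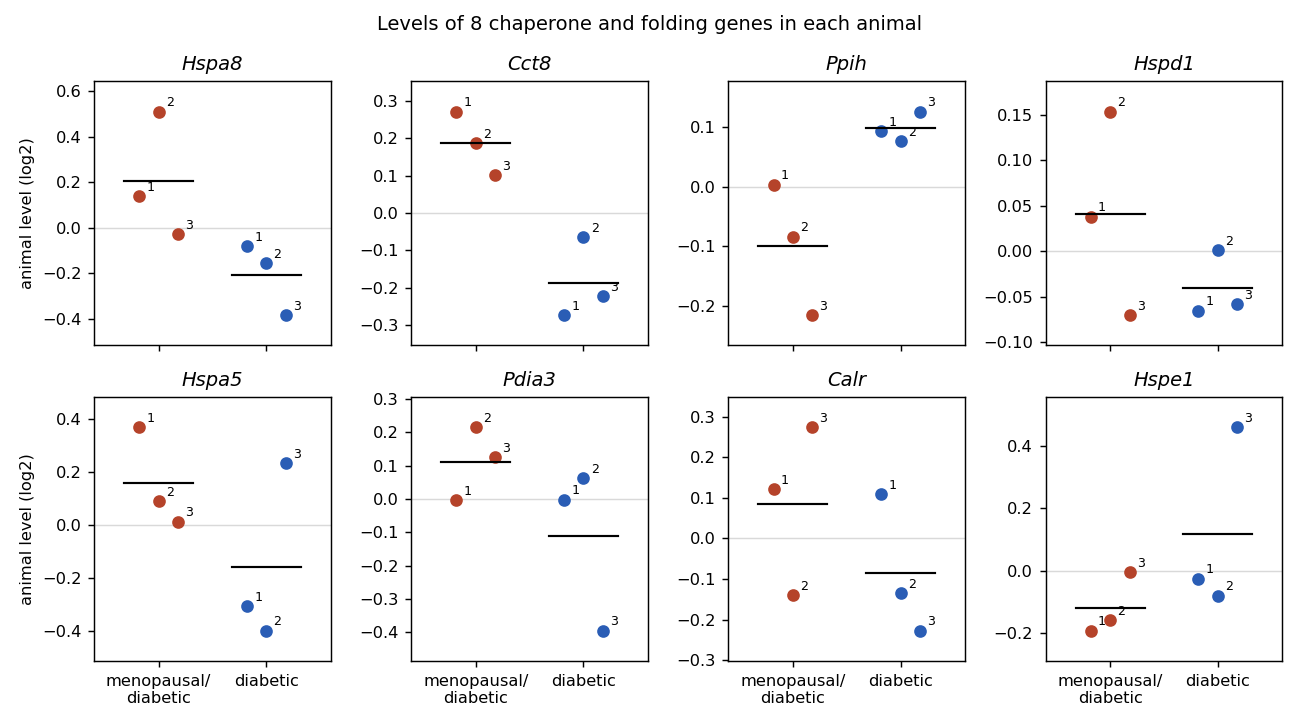
Levels of 8 members in each animal (vertical axis, log2, relative to the mean of the 6 animals; points numbered by animal, bars for group means, menopausal/diabetic mice left and diabetic mice right of each panel). The groups do not overlap for Hspa8, Cct8 and Ppih, and for Hspa5, Pdia3, Calr and Hspe1 diabetic animal 3 lies away from at least one of its group mates.

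Subunits of the CCT ring, which folds actin and tubulin, did not share a direction. Cct8 had levels of 0.27, 0.19 and 0.10 in menopausal/diabetic animals 1, 2 and 3, against -0.27, -0.06 and -0.22 in diabetic animals 1, 2 and 3. These fitted levels did not overlap, with a difference of 0.37 ± 0.07 (SE, n = 3 each), a 95% interval of 0.20 to 0.55 and a limma adjusted p of 0.328. Single arrays were less even, with a residual SD of 0.40 between arrays. The SE and interval come from the spread of the 6 fitted levels and can be too narrow. On the 6 arrays that pair the groups, 4 had a higher Cct8 signal from the menopausal/diabetic animal. Their log2 ratios of menopausal/diabetic over diabetic ran from -0.25 to 0.98. The only Cct8 clone is printed at the upper left of the slide, in 3 print blocks where 31.3% of features had an unadjusted p under 0.05, against 7.03% elsewhere, and its difference was 0.15 with a loess curve for each print block. The part of slide position in it was not tested further. Of the 7 subunits measured, 3 had a positive and 4 a negative difference (median -0.05): Tcp1, the alpha subunit, stood at 0.14, Cct5 at 0.04, Cct3 at -0.05, Cct2 at -0.06, Cct4 at -0.08 and Cct7 at -0.16. Cct2 and Cct3 turned positive without background correction (0.03 and 0.01) and with median centring (0.04 and 0.02). The 4 clones of Cct7 ran from -0.16 to 0.19 and the 4 of Cct3 from -0.18 to 0.09.

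The cyclophilins, prolyl isomerases that bind cyclosporin, were all lower in sign, 5 of 5, with differences of -0.20 to -0.02. The count was 4 of 5 without background correction and with the mean over clones, and 3 to 5 of 5 when 1 animal was left out. Ppih, a cyclophilin of the spliceosome, had levels of 0.00, -0.08 and -0.22 in menopausal/diabetic animals 1, 2 and 3, against 0.09, 0.08 and 0.13 in diabetic animals 1, 2 and 3. The fitted levels of the 3 diabetic animals lay close together and above the other group. Arrays were less close, with a residual SD of 0.41 and a log2 ratio of -0.34 for diabetic animal 2 over 1 on their array. The difference was -0.20 ± 0.07 (SE, n = 3 each, limma adjusted p = 0.535). It was -0.08 in the fit without diabetic animal 3 and -0.07 without background correction. Ppig, a nuclear cyclophilin, had a difference of -0.13, and its 4 measured clones ran from -0.13 to 0.06. The direction of Ppia, cyclophilin A, rests on the choice of clone. Its brightest clone had a difference of -0.07 while its other 4 clones lay at 0.01 to 0.33, and the mean over the 5 was 0.11.

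**Figure D3:**
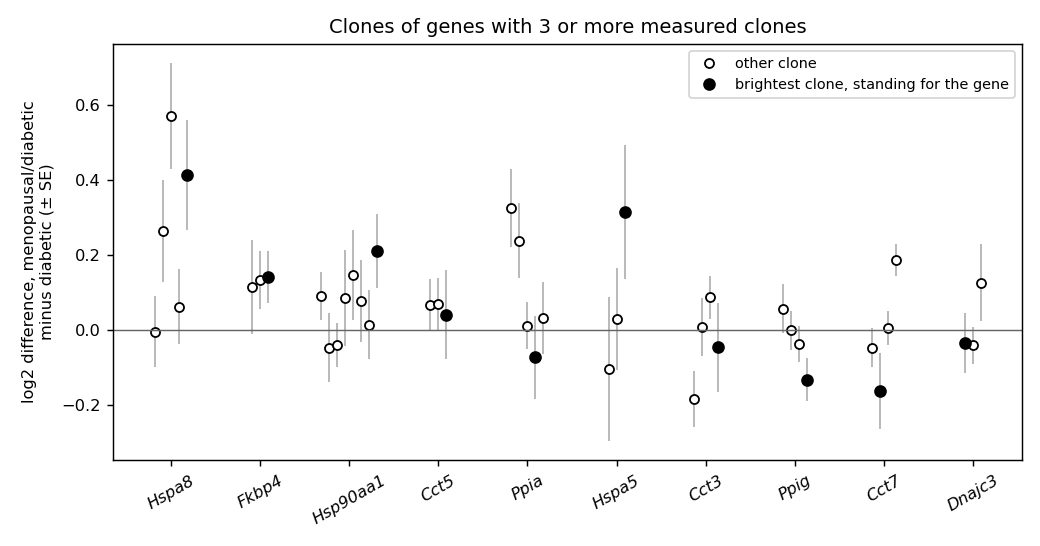
Differences of single clones for the 10 genes with 3 or more measured clones (vertical axis, log2, menopausal/diabetic minus diabetic, ± SE). Filled points are the brightest clone, which stands for the gene. Clones of Fkbp4 lie together between 0.11 and 0.14, while those of Hspa8, Hspa5, Ppia and Cct7 spread widely.

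Across the whole set, 34 genes had 2 or more measured clones, 90 clones in all. All clones had the same sign in 13 of these genes and signs were mixed in 21. Clones can hold different parts of a transcript, and the identity of a spotted clone was not checked here.

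J proteins split evenly, with 12 higher and 10 lower of 22 and a median of 0.01. Dnajc13, the endosomal J protein that recruits Hsc70 to sorting endosomes, had levels of 0.07, 0.13 and 0.23 in menopausal/diabetic animals 1, 2 and 3, against -0.01, 0.01 and -0.43 in diabetic animals 1, 2 and 3. The groups did not overlap, but the difference of 0.29 ± 0.12 shrank to 0.04 without diabetic animal 3. Dnaja1, the main farnesylated partner of Hsc70, had a difference of 0.08 ± 0.11, which was -0.10 without that animal. The lowest difference among the members tested was that of Fkbp3, a nuclear FK506-binding protein, at -0.31 ± 0.17, with diabetic animal 3 at 0.55 and every other animal at or below 0.01. Without diabetic animal 3 its difference was -0.18.

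Among the ER genes, Hspa5, Pdia3 and Pdia6 had the widest spread over the diabetic animals, with SDs of 0.34, 0.25 and 0.24. Hspa5, which encodes BiP, had levels of 0.37, 0.09 and 0.01 in menopausal/diabetic animals 1, 2 and 3, against -0.31, -0.40 and 0.23 in diabetic animals 1, 2 and 3. Diabetic animal 3 lay above 2 of the menopausal/diabetic animals, and the difference was 0.31 ± 0.18 (SE, n = 3 each, limma adjusted p = 0.662), or 0.43 without that animal. Its brightest clone too lies in the upper left blocks, and the difference was -0.03 with a loess curve for each print block. Its other clones gave 0.03 and -0.10.

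Calr and the disulfide isomerases Pdia3 and Pdia6 were lowest in diabetic animal 3, while the isomerases P4hb and Pdia5 were highest there, at 0.07 and 0.09. Pdia3 (ERp57), the isomerase that works with calnexin and calreticulin, had levels of 0.00, 0.21 and 0.13 in menopausal/diabetic animals 1, 2 and 3, against 0.00, 0.06 and -0.40 in diabetic animals 1, 2 and 3. Pdia6 stood at 0.25, -0.02 and 0.11, against 0.11, -0.07 and -0.37, and Calr at 0.12, -0.14 and 0.27, against 0.11, -0.14 and -0.23, in the same order. The differences of 0.22 for Pdia3, 0.23 for Pdia6 and 0.17 for Calr became 0.06, 0.01 and 0.12 without that animal. The low value of Pdia6 was not seen in its second clone, which was at 0.09 in diabetic animal 3 and had a difference of -0.08, so the mean over both clones was 0.07. With a loess curve for each print block the difference of Pdia3 was 0.04 and that of Pdia6 0.14. Grp94, Hsp90b1, had a difference of 0.04 ± 0.08, P4hb, the founding disulfide isomerase, one of -0.03 ± 0.05, and Pdia5 one of -0.05 ± 0.06. Canx, calnexin, was at 0.03 ± 0.06 by its brightest clone and at 0.29 ± 0.11 by another. Dnajc3, the ER J protein that restrains the kinases of eIF2, was at -0.04 ± 0.08, and Dnajb9, a BiP partner induced by ER stress, at 0.06 ± 0.05.

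Diabetic animal 3 was the lowest of the 6 animals for 7 of 16 ER members (43.8%), against 22.4% of all features, and the highest for 3 (18.8%), against 26.8%. Among the 15 tested genes of ER folding and the unfolded protein response that are not members, it was the lowest for 4 (26.7%) and the highest for 6 (40%). It was thus not low in every ER gene. Hspa5 was at 0.23 there, and of the unfolded protein response genes that are not members, Manf, a secreted stress protein, was at 0.58 and Xbp1, the spliced transcription factor, at 0.50. For both Manf and Xbp1 these were the highest of the 6 animals.

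The ER stress response element is the best known promoter element of this group, and promoter windows of the members were read to show which carry it. The motif searched was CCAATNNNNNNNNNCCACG on either strand, in windows of 250 bases before to 50 after a gene's start from RefSeq (GRCm38.p6). It was found in 6 of the 15 ER members with a window, in 0 of 34 cytosolic and 0 of 5 mitochondrial members, and in 0.119% of all 32851 windows. The 6 windows are shown in the gene's own direction, with capitals for the matches. They are Hspa5 (chr2:34772005-34772063, plus strand), Pdia6 (chr12:17266471-17266529, plus strand), Dnajc3 (chr14:118937807-118937865, plus strand), Calr (chr8:84847055-84847113, minus strand), Canx (chr11:50325780-50325838, minus strand) and Hsp90b1 (chr10:86705513-86705676, minus strand), the last with a match at either end.
Hspa5: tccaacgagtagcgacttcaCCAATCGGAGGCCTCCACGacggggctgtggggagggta
Pdia6: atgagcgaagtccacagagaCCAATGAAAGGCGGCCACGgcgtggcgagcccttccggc
Dnajc3: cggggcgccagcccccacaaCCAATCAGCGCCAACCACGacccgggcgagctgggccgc
Calr: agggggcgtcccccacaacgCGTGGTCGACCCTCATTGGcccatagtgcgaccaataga
Canx: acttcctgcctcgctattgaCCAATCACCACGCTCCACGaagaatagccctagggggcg
Hsp90b1: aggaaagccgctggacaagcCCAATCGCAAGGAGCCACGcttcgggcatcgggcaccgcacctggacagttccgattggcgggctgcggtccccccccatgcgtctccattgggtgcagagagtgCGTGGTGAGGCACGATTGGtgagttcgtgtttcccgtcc

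The 6 genes with a match had differences of -0.04 to 0.31, with 5 higher, 1 lower and a median of 0.11. The 9 other ER members with a window had differences of -0.19 to 0.22, with 4 higher, 5 lower and a median of -0.03. The ranges overlap, and without diabetic animal 3 the 6 genes had 3 higher and 3 lower, with a median of -0.01. The 9 others were not summarised without that animal, so the 2 sets were not compared there. A match is a stretch of letters and was not tested as a binding site.

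In mitochondria the paired chaperonin genes differed in their values. Hspe1 (Hsp10) had levels of -0.19, -0.16 and 0.00 in menopausal/diabetic animals 1, 2 and 3, against -0.02, -0.08 and 0.46 in diabetic animals 1, 2 and 3. Its high value was that of diabetic animal 3, and the difference of -0.24 ± 0.15 (SE, n = 3 each, limma adjusted p = 0.693) was -0.07 without it and -0.11 with a loess curve for each print block. Hspd1 (Hsp60), whose rings Hsp10 caps, had levels of 0.04, 0.15 and -0.07 in menopausal/diabetic animals, against -0.07, 0.00 and -0.06 in diabetic animals, with a difference of 0.08 ± 0.07. The animals overlapped in both genes.

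Hspd1 and Hspe1 lie head to head on chromosome 1 and share the bases between their starts. A heat shock element motif, GAANNTTCNNGAA or its reverse complement TTCNNGAANNTTC, was found there in 2 overlapping copies and in 0.603% of all windows. The shared stretch (chr1:55088053-55088082) is shown in the direction of Hspe1 and then of Hspd1, with capitals for the matches.
Hspe1: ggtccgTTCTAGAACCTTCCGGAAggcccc
Hspd1: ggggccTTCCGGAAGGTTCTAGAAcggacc

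Besides these, the motif was found in the windows of Hsph1 and Dnajb6 among the 54 members with a window. Hspa8, Hsp90aa1, Hspa9, Hspa13, Cct4, Ppic, Ppid, Dnajc2, Dnajc5, Dnajc11, Dnajc30 and Hspd1-ps3 were not searched. Dnajb6, a J protein that keeps aggregation-prone proteins soluble, had a difference of 0.09 ± 0.08. Among the other mitochondrial members, Dnaja3 was at 0.08, Dnajc11 at 0.06, Fkbp8 at -0.07 and Dnajc15 at -0.21. Dnajc15, a J protein of the inner-membrane import motor, had its highest level, 0.34, in diabetic animal 3. Grpel1, the exchange factor of mortalin and no member, stood at 0.75 in that animal and below 0 in the other 5.

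Variation within a group was tested against the error between arrays with limma's moderated F test, separately for the 3 animals of each group. Among menopausal/diabetic animals 0 members passed an adjusted p of 0.05, against 0% of all features, and 4 had an unadjusted p under 0.05, against 5.13%. Among diabetic animals 0 members passed the adjusted threshold, against 1.45%, and 10 had an unadjusted p under 0.05, against 13.1%. The 10 were Hspe1, Hsph1, Fkbp3, Calr, Hspa5, Pdia6, Hspb8, Hspb1, Dnajc13 and Dnajc15. With a loess curve for each print block, 3 members passed, against 2.73% of all features in that setting. They were Hspa5, Calr and Hspe1, with adjusted p of 0.00632, 0.0446 and 0.0469 in limma. In that setting diabetic animal 3 was at 0.54 for Hspa5, -0.36 for Calr and 0.38 for Hspe1, so these genes parted in opposite directions in it. Diabetic animal 3 was the farthest from 0 of the 6 for 25 of 62 members (40.3%), against 33.5% of all features.

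The small heat shock protein genes Hspb1 and Hspb8 did not pass limma's F test among diabetic animals, with adjusted p of 0.274 and 0.251. Hspb1 (Hsp25), an actin-protecting chaperone, was at 0.06, -0.06 and -0.02 in menopausal/diabetic animals 1, 2 and 3, against 0.03, -0.19 and 0.18 in diabetic animals 1, 2 and 3, with a difference of -0.01 ± 0.10 that turned positive without background correction (0.00), with median centring (0.04) and with scale normalization (0.02). Its low value was that of diabetic animal 2, as for Hspb8, at -0.17.

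Cochaperones that hand clients from HSP70 to HSP90 were measured as well. Of 23 listed cytosolic cochaperones and regulators that are no members, 19 were tested, 11 higher and 8 lower, with a median of 0.01. No adjusted p was under 0.05, while 5 were higher at an unadjusted p under 0.05, Ahsa1, Nudc, St13, Bag4 and Stip1, against 5.14% of all features, and 1 was lower, against 3.22%, Pfdn5, a prefoldin subunit that feeds CCT. Without background correction 1 was higher. These 6 are named after their values were seen. St13 (Hip), which binds Hsc70, had levels of -0.02, 0.51 and 0.11 in menopausal/diabetic animals 1, 2 and 3, against -0.15, -0.16 and -0.29 in diabetic animals 1, 2 and 3. The groups did not overlap and menopausal/diabetic animal 2 was the high one, as for the brightest Hspa8 clone. The Hspa8 clone with a difference of 0.57 was highest in menopausal/diabetic animal 1. St13's difference of 0.40 was 0.03 without diabetic animal 3 and 0.01 without menopausal/diabetic animal 2. It was 0.16 as the mean over the St13 clones and -0.09 without background correction. Stip1 (Hop), which bridges HSP70 and HSP90, had a difference of 0.14, which was 0.07 without diabetic animal 3, 0.02 with a loess curve for each print block and -0.04 as the mean over its clones. Ahsa1, the activator of HSP90's ATPase, was at 0.01, 0.18 and 0.18 in menopausal/diabetic animals, against -0.08, -0.20 and -0.10 in diabetic animals, and its difference of 0.25 was 0.28 without diabetic animal 3. Its clone lies in the upper left print blocks, and with a loess curve for each print block the difference was 0.0028. Nudc, an HSP90 cochaperone, had a difference of 0.30, or 0.10 without that animal. Without diabetic animal 3 the count was 2 higher, against 3.11% of all features, and 1 lower, against 1.51%.

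**Figure D4:**
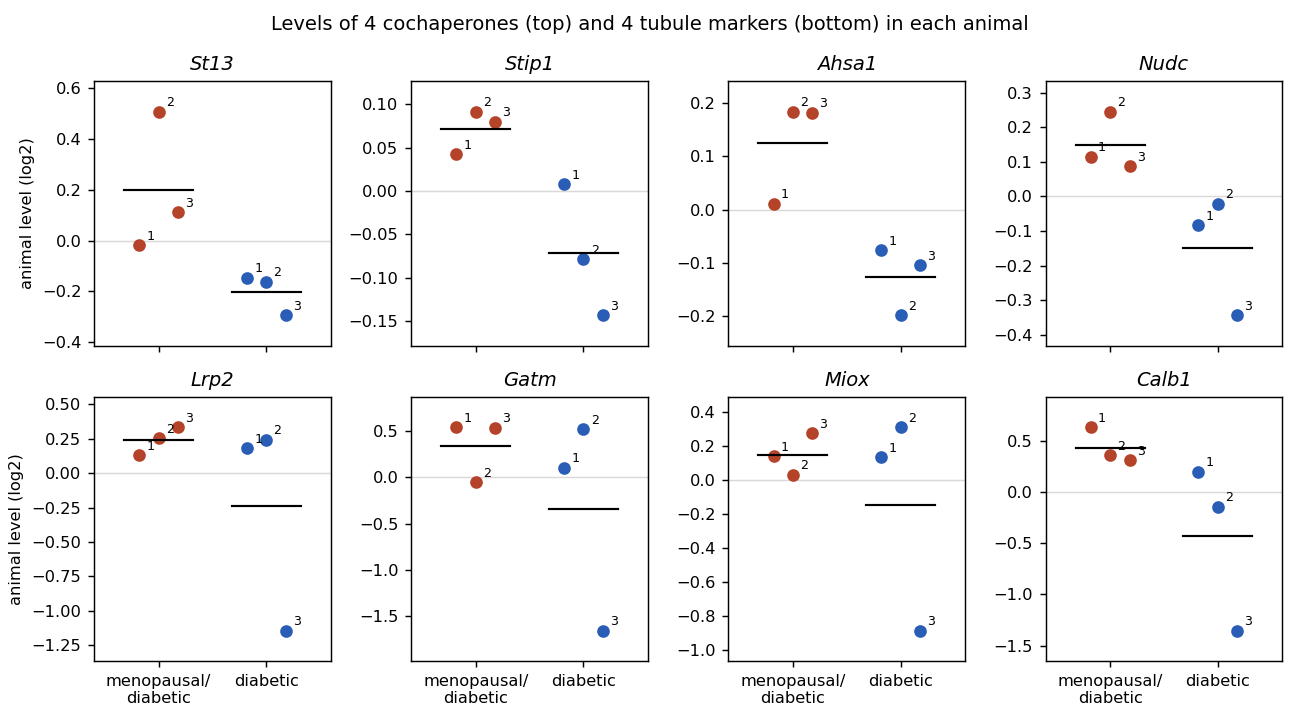
Levels of the cochaperones St13, Stip1, Ahsa1 and Nudc (top) and of the tubule markers Lrp2, Gatm, Miox and Calb1 (bottom) in each animal (vertical axis, log2, relative to the mean of the 6 animals; points numbered by animal, bars for group means, menopausal/diabetic left and diabetic right). The groups do not overlap for the 4 cochaperones, and diabetic animal 3 lies at -0.89 to -1.66 for the 4 markers.

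Of 23 other listed genes of ER folding and the unfolded protein response, 15 were tested. At an unadjusted p under 0.05, Selenos, a membrane protein of ER-associated degradation, was higher by 0.16 and Erp29, an ER-lumen escort, lower by 0.20, and both were named after their values were seen. Without diabetic animal 3 Selenos was at 0.04 and Erp29 at -0.12, and the mean over its clones was 0.03 for Selenos. Of 9 listed genes of mitochondrial folding and proteolysis 4 were tested, and none had an unadjusted p under 0.05 in limma.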

How the data were processed

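Per the file headers, the deposited scanner files give each spot's mean intensity and local median background in both channels and a signal-to-noise score that was not used. The authors also deposited a table of log2 ratios. The sources used here do not say how it was normalized. Of its 12 columns, 0 correlated most strongly with the array of their name, so it served for that check alone. Array titles gave the animal of each dye.

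Ratios of Alexa Fluor 647 over Alexa Fluor 546 were obtained with limma 3.58.1 in R 4.3.3: normexp with an offset of 50 (23 spots with no background value left out), loess within arrays, mean of a clone's 2 spots, the dimmest 25% of clones left out, brightest clone per gene. The test covered 5871 named genes and 4087 clones with no name. Genes were named from the platform annotation by clone number, counted from the slide bottom and updated through RefSeq. In this order the 160 ribosomal protein clones had a mean brightness percentile of 88.8. Least squares turned the 12 ratios into 6 animal levels with a dye term, compared 3 against 3 by lmFit and eBayes, two-sided, threshold 0.05. If array error alone were present, this design would make true SEs 1.10 times those computed, so p-values are somewhat small. That ratio is for the layout as a whole. For single genes picked by a small p, the computed SE can fall further short. Cct8, Ppih and St13 had SEs of 0.07, 0.07 and 0.13, with residual SDs between arrays of 0.40, 0.41 and 0.74. On simulated data for this comparison over 9958 features, 98 of 100 changes of 1 and 72 of 100 of 0.5 (log2) were recovered, with 21 false calls. How the simulated spread compares with that of these animals and slides is not given here. In the real data 0 features passed, with a smallest limma adjusted p of 0.239. The simulated shares are therefore not to be read as the power of the real test.

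Members, lists and named genes (31 fixed symbols where measured, plus the 3 higher and 3 lower of smallest p in each compartment) were chosen with earlier results of these data known. Further genes are named from counts or families. Alternatives changed the background correction, normalization, filter, clones, arrays, animals and replicate block. Promoters were searched with Python 3.11.15. Levels of same-numbered animals of the 2 groups had r of -0.04, -0.37 and -0.17. Such animals never shared an array, and array error in this layout can itself shift r. These r therefore cannot show whether the numbers pair animals.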

Additional observations from a re-analysis of the deposited data

How the results depend on the processing

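In the test between groups, no member had an adjusted p under 0.05 under any alternative run. Features called were 22 with arrays as replicates, 2 with scale normalization, 46 at most (0 to 46) with an animal left out, the 46 without diabetic animal 2, and 0 under the others. The 46 named genes gave 915 values under alternatives, 49 of opposite sign, and 24 genes kept their sign in all, among them Hspa8, Cct8, Ppih, Pdia3 and Hspe1. Several alternatives changed only the filter, marked spots, upper left blocks, replicate unit, or arrays with all animals kept. For nearly every gene still measured, these returned the main difference again. Signs could hardly turn there, so the counts of kept signs overstate how far the signs were tried. Cochaperone results under alternatives were chosen after seeing the data. Dim clones, unequal clones of a gene and weakly supported titles limit every value.

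Members at an unadjusted p under 0.05 (2 higher, 1 lower) were 7 and 3 with arrays as replicates (all features 5.36% higher and 4.38% lower), 8 and 2 of 118 clones on their own (5.23% and 3.24%), 4 and 0 with median centring (4.17% and 0.603%), 6 and 3 with scale normalization (6.48% and 4.18%), and 5 and 3 on the 6 between-group arrays (3.81% and 2.69%). The higher ones were 4 with the mean over clones (5.15%), 5 of 63 without background correction (3.86%) and 5 without the array of diabetic animals 2 and 3 (4.07%), and the lower ones were 2 of 66 with no filter (3.03%). Members without overlap of the groups (6 higher, 2 lower) were 13 and 4 by clone, 3 higher with a loess curve per print block, and lower ones were 1 with the mean over clones, 0 with median centring and 5 with scale normalization. Among diabetic animals, 17 members had an unadjusted F-test p under 0.05 with loess per print block (14.8% of all features) and 3 an adjusted one (2.73%), and 4 an unadjusted one without background correction (11.03%). Medians with median centring were 0.064 over all members, 0.077 in the cytosol, 0.062 in the ER and 0.054 in mitochondria, where the median of all features was 0.017 and 87.4% of features at an unadjusted p under 0.05 were higher, against 61.5% with loess, 54.4% with loess per print block, where the ER median was -0.017, and 49.4% without background correction. The median over members was 0.0037 without background correction, and that of mitochondria -0.06 by clone.

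Cochaperones at an unadjusted p under 0.05 (5 higher, 1 lower) were 3 higher with the mean over clones, 3 and 2 with arrays as replicates, 3 and 0 with median centring, 2 and 0 on the between-group arrays, 2 higher without the array of diabetic animals 2 and 3, 1 higher without background correction and 2 lower by clone. With the animal number as a replicate block, 3 cochaperones and 3 members were higher and 0 features had an adjusted p under 0.05, so no adjusted call changed.

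Signs turned for Hspa5 (-0.026) and Cct2 (0.037) with loess per print block. They turned with the mean over clones for Dnajc11 (-0.0081), Dnajb9 (-0.023), Stip1 (-0.042), Dnajc3 (0.017), Cct2 (0.021) and Ppia (0.11), and with median centring for Cct3 (0.019), Hspb1 (0.042), Cct2 (0.043) and Dnajc3 (0.048). Without background correction they turned for Dnajc11 (-0.014), Hsph1 (-0.019), Dnaja3 (-0.066), St13 (-0.087), Hspb1 (0.0047), Cct3 (0.011), Cct2 (0.027) and Dnajb1 (0.13), and with scale normalization for Hspb1 (0.022). The cause was not tested.

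With 1 animal left out in turn, higher members numbered 2 to 6 and lower ones 1 to 3, higher cochaperones 2 to 6 and lower ones 0 to 2, and medians ran from -0.0050 to 0.046 over members, -0.042 to 0.068 in the ER and -0.083 to 0.012 in mitochondria. Differences of mixed sign ran from -0.087 to 0.18 for Canx, -0.14 to 0.037 for Cct2, -0.15 to 0.12 for Cct3, -0.10 to 0.22 for Dnaja1, -0.065 to 0.21 for Dnaja3, -0.097 to 0.023 for Dnajb1, -0.34 to 0.062 for Dnajb11, -0.068 to 0.17 for Dnajb9, -0.0055 to 0.11 for Dnajc11, -0.10 to 0.017 for Dnajc3, -0.20 to 0.097 for Fkbp5, -0.056 to 0.12 for Hsp90b1, -0.013 to 0.045 for Hspa4, -0.081 to 0.19 for Hspa9, -0.10 to 0.0502 for Hspb1, -0.016 to 0.16 for Hspd1, -0.13 to 0.15 for Hsph1, -0.066 to 0.0016 for P4hb and -0.21 to 0.11 for Ppia. The deposited log2 table was not run as an alternative, since its columns correlated most strongly with other arrays than they name. Whether its columns or the titles of the scanner files are swapped was not settled, and every animal level here rests on those titles.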
